A study of Mus with 2 samples.

Results

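The genes described here are those of the osteoclast program and of the RANK axis that controls it, measured in mouse bone marrow derived macrophages (BMDMs) under M2 conditions. They are 10 genes, defined by a list of names, out of 20144 genes with a matched probe on the array: the ligand Tnfsf11 (RANKL), its receptor Tnfrsf11a (RANK) and its decoy Tnfrsf11b (osteoprotegerin), the transcription factor Nfatc1, the receptors Oscar and Calcr, the fusion proteins Dcstamp and Ocstamp, and the resorption enzymes Ctsk and Acp5. The array held 12 probes for them, each printed at 1 spot, with 2 probes each for Acp5 and Nfatc1 and 1 for each other gene. Both groups were marrow cells of 10-week-old male C57BL6/J mice, grown for 7 d with M-CSF at 10 ng/mL and then cultured for 24 h with IL-4 at 10 ng/mL. The DMSO group received the solvent, and the GW4064 group received 10 µM of GW4064, a synthetic agonist of the nuclear receptor FXR, during those 24 h. A free-text field of the GW4064 sample repeats the wording of the DMSO sample, while its title, source name and treatment label all give GW4064. No RANKL was named among the additions to either culture, and the number of mice behind each was not given in the sources used here.

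RANKL binds RANK on monocytes and macrophages, and in the presence of M-CSF this signal turns on Nfatc1, the master transcription factor of osteoclasts, which are the multinucleated cells that resorb bone. Osteoprotegerin is a secreted decoy receptor that binds RANKL and keeps it from RANK. Mesenchymal stromal cells and osteoblasts are the usual sources of osteoprotegerin and RANKL in bone, and B cells and T cells, respectively, can make them too. IL-4 is known to restrain osteoclast formation driven by RANKL and, at the same time, to induce fusion of macrophages into giant cells.

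Each condition had 1 array, so replicate error could not be measured, no test was run, and differences are given by size. A value is the signal of a spot after the scanner software subtracted the background, with the software's own error estimate. For comparison between the arrays, signals were put on the log2 scale relative to the 75th percentile of their own array, and 2-fold was the threshold for a call. Over 227 other probes that were printed 10 times and read well above background, copies of 1 probe varied in their log2 difference with an SD of 0.076 (median over the probes). This SD was 0.069 for signals above 10000 and 0.16 for signals between 20 and 100. It covers the reading of the slide and leaves out any difference between cultures or RNA preparations.

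Of the 10 genes, 8 were well above background on both arrays, and for these 1 was 2-fold or more higher and 1 was 2-fold or more lower with GW4064. Over all 13532 genes measured, 2.04% were higher and 2.71% lower by that much. At 1.5-fold the same 2 genes were called, where 4.39% of all genes were higher and 5.56% lower, and at 4-fold 0 were higher and 1 lower, where 0.48% of all genes were higher and 0.584% lower. The gene above the threshold was Acp5 and the gene below it was Tnfrsf11b, while Tnfrsf11a, Nfatc1, Oscar, Dcstamp, Ocstamp and Ctsk lay within 2-fold. By direction alone, 3 of the 8 were higher and 5 lower, where 51.6% of all genes measured were higher and 48.2% lower. The median log2 difference of the 8 was -0.086, against 0.0068 over all genes measured. Without regard to sign, the median log2 difference was 0.49 for the 8 genes and 0.12 over all genes measured. For 2 genes, Tnfsf11 and Calcr, neither array gave a signal well above background.

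**Figure D1:**
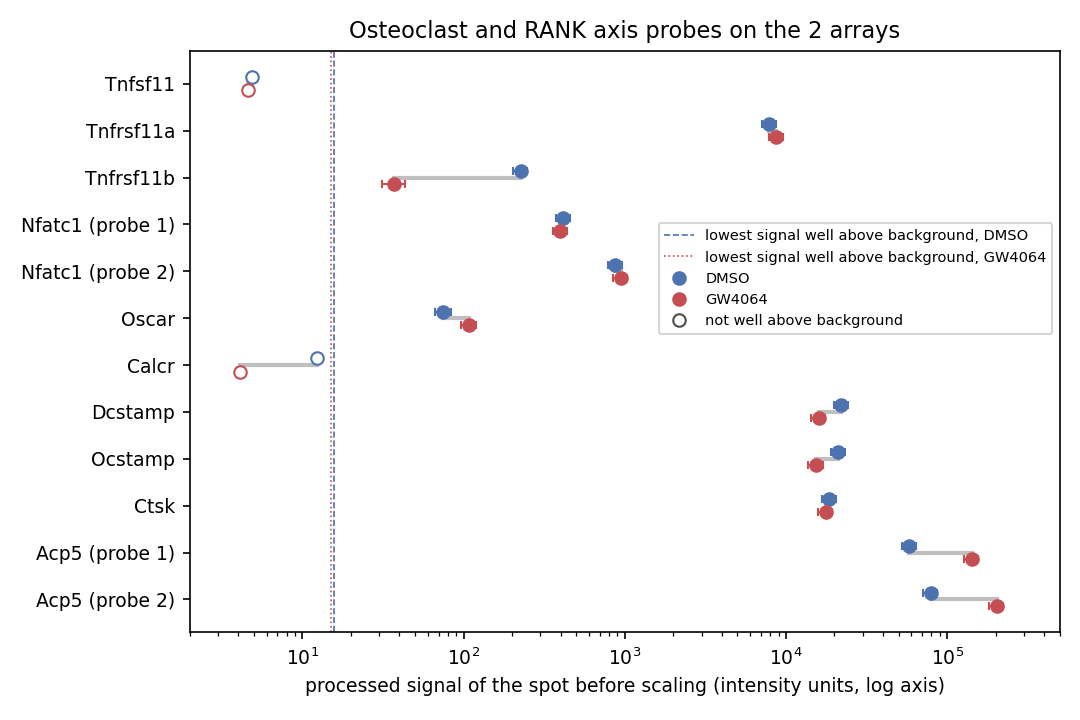
Processed signal of each of the 12 probes on the DMSO array (blue) and the GW4064 array (red), on a log axis before scaling between arrays. Bars are the scanner software's error of 1 spot, open circles are spots not well above background, and the vertical lines mark the lowest signals that were well above background. Both Acp5 probes sit to the right on the GW4064 array, Tnfrsf11b sits to the left there, and both Tnfsf11 and Calcr lie below the lines. Brightness depends on the probe, so levels of different probes are not comparable.

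The ligand of the axis was not detected on either array. The probe for Tnfsf11 had a signal of 4.90 with DMSO and 4.62 with GW4064, and neither was well above background. The lowest signals well above background were 15.7 with DMSO and 15.1 with GW4064. It is these levels, and not the readings themselves, that limit the ligand's signal from above, and no difference can be given. Of 6 T cell markers fixed as a list, Cd3d, Cd3g and Cd8a were not well above background either, and Cd3e, Cd4 and Lck had log2 differences of 0.18, -0.15 and 0.0080.

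The receptor was bright and nearly equal on both arrays. Tnfrsf11a, which transmits the RANKL signal and marks cells of this lineage as able to respond to it, had a signal of 7891 ± 789 (software error of 1 spot) with DMSO and 8683 ± 868 with GW4064. The log2 difference was 0.072, about as large as the median SD of 0.072 over copies of probes with signals between 1000 and 10000. The sign turned to -0.092 with centring on the spike-in RNA, so no direction can be given for RANK.

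The decoy showed the largest difference among the 10 genes. Tnfrsf11b had a signal of 226 ± 23.1 with DMSO and 37.1 ± 6.15 with GW4064, and both readings passed the background test. This is a log2 difference of -2.67, or 6.36-fold lower with GW4064, with an error of 0.28 by the software's estimates. It was the 3rd largest decrease among the 12399 genes for which every probe that passed the background test on either array passed on both. Of all 13532 genes measured, 0.207% were lower by as much. The reading rests on 1 spot per array, and within 300 µm 0 other spots showed an 8-fold difference, while the 60 spots around it had a median log2 difference of -0.092. A normexp background correction, whose offset draws dim signals together, gave -1.36, and the value stayed between -2.83 and -2.61 under the other settings tried. The 3 genes nearest to it in log2 difference over the 2 arrays, outside the 10, were Trim66 (-2.58), Rspo2 (-2.46) and Crybg2 (-2.42), of which Trim66 had 5 other spots with an 8-fold difference within 300 µm.

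Of 18 markers of stromal cells and osteoblasts, the cells that usually make osteoprotegerin, 15 were measured, with a median log2 difference of -0.50. By direction 11 were lower and 4 higher with GW4064, where 6521 of the 13532 genes measured were lower. Past 2-fold 1 was lower (Postn) and 0 higher. The number lower past 2-fold was 0 after the normexp correction and 3 (Postn, Col1a2 and Dcn) when centred on the spike-in RNA. Their summed signal, most of it from the bright probes for Col1a2 and Sparc, was 27217 with DMSO and 15496 with GW4064. The lowest values were Postn with -1.11, Col1a2 with -0.99 and Dcn with -0.88, while Kitl had 0.30. Of the markers of the osteoblast itself, Runx2, an early transcription factor, had -0.40 at dim signals of 30.9 and 24.5. Sp7, which encodes its defining transcription factor, was not well above background, and Bglap had no matched probe. Alpl and Ibsp were well above background on 1 array each and higher with GW4064, by log2 differences of at least 0.13 and 0.21. Their signals were near the lowest read, 13.4 and 15.9 with DMSO and 18.0 and 19.2 with GW4064. Among B cell markers, Cd79a and Pax5 were not well above background, Cd79b had -0.32 and Ms4a1 was at least 2.47-fold lower, a log2 difference of -1.31 that the normexp correction reduced to -0.57, within 2-fold. In total RNA of a culture, fewer cells of a type and less RNA per cell cannot be told apart. The part of these cells in the difference of Tnfrsf11b was not tested.

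Nfatc1, which switches on most genes of osteoclast resorption, differed little between the arrays. Its 2 probes, designed to different transcripts, had signals of 416 ± 41.8 and 869 ± 87.0 with DMSO and of 398 ± 40.0 and 945 ± 94.6 with GW4064. Their log2 differences were -0.13 and 0.055, with a mean of -0.036. The gap of 0.18 between the probes was not unusual, since 26.9% of the 2711 genes with 2 probes well above background on both arrays had a larger one. With the brighter probe alone Nfatc1 was higher (0.055) and with the arrays centred on the spike-in RNA it was lower (-0.20), so its direction was not settled.

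The receptors of the lineage were dim. Oscar, an immune receptor that costimulates osteoclast precursors through the FcR gamma chain, had a signal of 74.95 ± 8.27 with DMSO and 108 ± 11.3 with GW4064, a log2 difference of 0.46, or 1.38-fold. The software's error of this difference was 0.22 and the median SD of copies at such signals 0.16. Of all genes measured, 13.5% differed by as much in either direction. The spot had 2 other spots with an 8-fold difference within 300 µm, so that Oscar has no value once such areas of the slide are left out. Calcr, the calcitonin receptor of mature osteoclasts, was not well above background, with signals of 12.3 with DMSO and 4.12 with GW4064.

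Both fusion genes were lower with GW4064, and by nearly the same amount. Dcstamp, a membrane protein required for cell fusion in osteoclasts and in giant cells, had a signal of 21988 ± 2199 with DMSO and 15963 ± 1596 with GW4064. Ocstamp, its relative with a like role, had 21144 ± 2114 and 15340 ± 1534. Each was 1.44-fold lower, with log2 differences of -0.53 for both genes. This is larger than the software's error of 0.20 and than 0.24, the highest SD over copies among the 38 such probes with signals above 10000. The median log2 differences of the spots around them were -0.18 for Dcstamp and -0.12 for Ocstamp, of the same sign, and the part of position on the slide was not tested. Over all settings Dcstamp lay between -0.69 and -0.53 and Ocstamp between -0.69 and -0.50. Of all genes measured, 11.4% differed by as much in either direction, and 6.30% were lower by as much as Dcstamp.

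Of the resorption enzymes, Acp5 was higher with GW4064 and Ctsk was nearly equal on both arrays. Acp5, the tartrate-resistant acid phosphatase (TRAP) used as the histochemical stain for osteoclasts, had signals of 58368 ± 5837 and 79140 ± 7914 on its 2 probes with DMSO. With GW4064 the signals were 141798 ± 14180 and 203001 ± 20300. The probes gave log2 differences of 1.21 and 1.29, a gap of 0.078 against a median gap of 0.10 over genes with 2 probes. The mean of 1.25, or 2.39-fold higher, was the 61st largest increase among genes read on both arrays, and 1.39% of all genes measured were higher by as much. Neither probe was saturated, neither had another spot with an 8-fold difference within 300 µm, and the value stayed between 1.09 and 1.29 under every setting. Ctsk, cathepsin K, the protease with which osteoclasts degrade bone collagen, had a signal of 18548 ± 1855 with DMSO and 17682 ± 1768 with GW4064, a log2 difference of -0.13. That is within the software's error of 0.20, and its spot had 3 other spots with an 8-fold difference within 300 µm, so that Ctsk, too, has no value without such areas. The log2 differences of Acp5 and Ctsk were thus 1.39 apart.

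**Figure D2:**
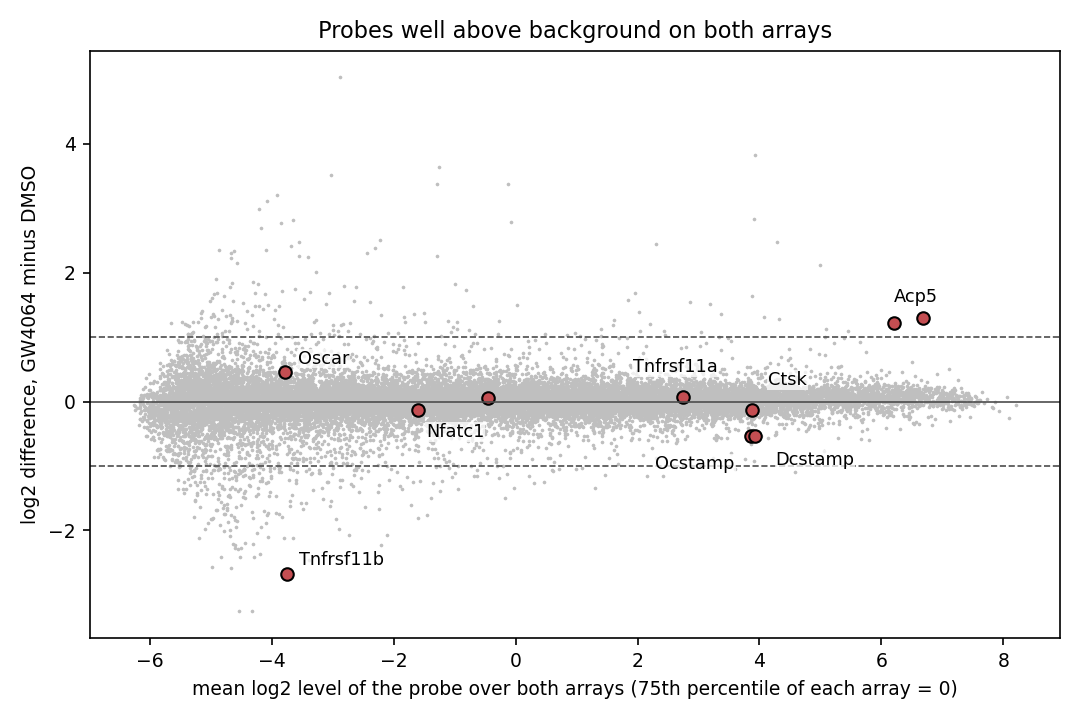
Log2 difference between the arrays (GW4064 minus DMSO) against the mean log2 level of each probe, for all probes well above background on both arrays (grey) and the probes of the genes described here (red). Dashed lines mark 2-fold. Acp5 stands above the bright probes at 1.21 and 1.29, Dcstamp and Ocstamp lie together at -0.53, and Tnfrsf11b at -2.67 is among the lowest of the dim probes.

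**Figure D3:**
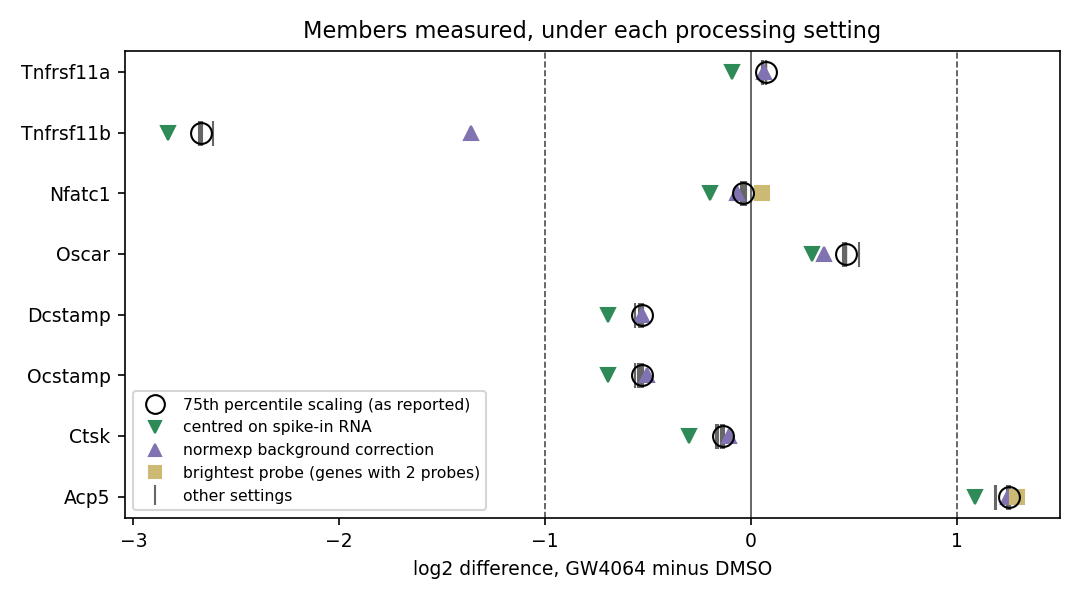
Log2 difference of the 8 genes measured, as reported (open circles) and under each alternative processing (other symbols). Acp5 stays above and Tnfrsf11b below the dashed 2-fold lines in all of them, while Tnfrsf11a and Nfatc1 lie on either side of 0.

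Genes that act with these 10 in osteoclasts were taken from 6 lists with 93 genes, of which 89 were measured. Past 2-fold there were 2 higher genes, Mmp9 and Src, and 0 lower ones, where 2.04% of all genes measured were higher and 2.71% lower. The median log2 difference of the 89 genes was -0.019, against 0.0068 over all genes measured. By direction 38 of the 89 were higher and 51 lower, where 51.6% of all genes measured were higher and 48.2% lower. Centring on the spike-in RNA moved every value by -0.16, and the median over all genes to -0.157. It left 15 of the 89 higher and 74 lower. With spots marked by the software kept, 90 genes were measured and 1, Id3, was 2-fold or more lower.

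RANK adaptors, kinases and the NF-kB and AP-1 factors downstream of the receptor were close to equal on both arrays. Of 31 measured, 15 were higher and 16 lower, with a median of -0.00029. Traf6, the adaptor that RANK depends on most, had -0.053, Nfkb1 -0.055, Relb -0.00029 and Jun -0.0044. Fos, an AP-1 subunit without which osteoclasts do not form, had -0.39. Nfkbia, the inhibitor of NF-kB, had 0.33, from a probe whose surroundings on the slide held 2 other 8-fold differences within 300 µm. Src, a kinase of the osteoclast cytoskeleton, was read 2.32-fold higher, from dim signals of 15.7 with DMSO and 38.2 with GW4064. The DMSO signal of Src was the lowest that was well above background on that array. The log2 difference of Src, 1.21, was reduced to 0.45 by the normexp correction. The probes for Traf2 disagreed, with 1.34 and -0.055.

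The immunoreceptor adaptors that costimulate RANK held nearly the same signal. Of 16 genes measured, 6 were higher and 10 lower, and 0 reached 2-fold in either direction. Centring on the spike-in RNA left 1 higher and 15 lower. Tyrobp (DAP12) had -0.0075, Fcer1g (the FcR gamma chain) -0.045 and Trem2 -0.082. The spot of Tyrobp had 5 other spots with an 8-fold difference within 300 µm, so that Tyrobp has no value without such areas. Siglec15, a partner of DAP12 on osteoclasts, had -0.46 at signals of 48.6 and 37.0, and Vav3, an exchange factor that osteoclasts need for resorption, had -0.44.

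Among the M-CSF receptor and the transcription factors of the lineage, 3 of 10 were higher and 7 lower, none by 2-fold. Csf1r had -0.24 and Mitf -0.23 as means over their probes. Prdm1 (Blimp1), which represses inhibitors of osteoclast formation, had -0.56, and Jdp2, an AP-1 family factor that promotes it, had 0.54. Of 7 repressors of differentiation, 6 were measured, with 3 higher and 3 lower. The other, Id3, had a spot marked by the software and was left out. With marked spots kept, 3 were higher and 4 lower, and 1 of these, Id3, was lower by 2-fold or more. Irf8 had 0.20 and Rbpj 0.25, while Bcl6 had -0.28 and Id1 -0.56.

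In the list for fusion and adhesion, 5 of 11 genes were higher and 6 lower, and 0 reached 2-fold. Atp6v0d2, a proton pump subunit that also serves fusion, had 0.042, in contrast to -0.53 for Dcstamp and Ocstamp. Itgb3, the integrin subunit by which osteoclasts hold on to bone, had -0.54 as the mean of probes at -0.80 and -0.28, and its partner Itgav had -0.27. The tetraspanin Cd81 had 0.36 and Cd9 -0.14.

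Of 15 genes of the acid and matrix machinery measured, 6 were higher and 9 lower. Mmp9, a gelatinase made in abundance by osteoclasts and also by macrophages, was 6.88-fold higher, from a signal of 437 to 3149. The proton pump and chloride exchange genes lay on either side of 0, with Atp6v1c1 at 0.16, Tcirg1 at 0.15, Atp6v1a at -0.13, Clcn7 at -0.20 and Atp6v1b2 at -0.37, and the first and second of these were also below 0 when centred on the spike-in RNA. Car2, the carbonic anhydrase that supplies protons for resorption, had 0.35, and Slc9b2, a sodium/proton exchanger induced in osteoclasts, had -0.50.

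**Figure D4:**
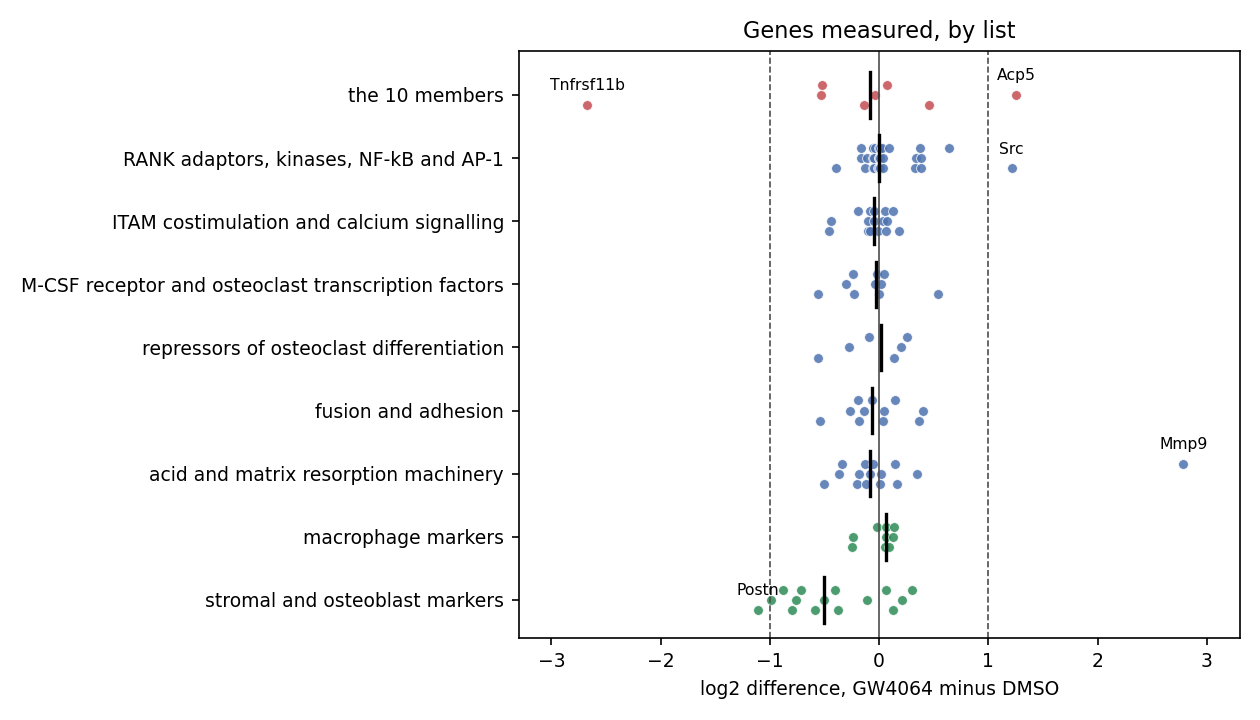
Log2 difference (GW4064 minus DMSO) of each gene measured, by list, with the median of each list as a black bar and 2-fold as dashed lines. Genes past 2-fold are named. The medians of the pathway lists lie between -0.083 and 0.021, whereas that of the stromal and osteoblast markers lies at -0.50.

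Markers of the macrophage itself were well above background on both arrays. Of 10, 9 had a matched probe and all 9 were measured, with 6 higher, 3 lower, 0 past 2-fold and a median log2 difference of 0.058. Centring on the spike-in RNA left 0 higher and 9 lower, with a median of -0.11. The lowest was Adgre1 (F4/80) with -0.25. Their summed signal, most of it from the bright probes for Csf1r and Adgre1, was 165439 with DMSO and 162701 with GW4064.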

How the data were processed

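RNA of 1 DMSO and 1 GW4064 culture was read on 1-colour Agilent arrays. The authors deposited the scanner output as intensity per spot, background-subtracted and detrended by Agilent Feature Extraction 10.7.1.1 and not scaled between arrays. They also deposited a log2 table, whose difference between columns equalled the one computed here within 2.8e-06 after a constant of 0.0022, so that both are on the same scale with the same direction. The baseline on which its probes were centred (column medians of 0.035 and -0.051) was not given in the sources used here.

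Spots marked by the software as uneven or as outliers among copies were left out (399 and 207 spots, none of the 10 genes described), and 0 spots were saturated. Spots of a probe were averaged, and a gene is the mean of those of its probes that passed the software's background test on 1 array or both (57.4% and 58.5% of probes passed). Where 1 array did not pass, its value was raised to the lowest one that did if it lay below that, and the difference is written as "at least". Gene symbols were matched by accession to RefSeq (GRCm38.p6) for 26581 of 39429 probes. Coordinates are left out because the array was designed on another build, and no sequences are shown.

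The genes and lists were chosen with earlier results of these data known. Beside these genes, list genes and the 3 genes nearest to the member that differed most were named. There were 6 pathway lists, a list of IL-4 response genes, and 5 lists of markers (macrophage, stromal and osteoblast, B cell, T cell, endothelial). Values of some list genes are not reported here. Calculations were tested on simulated data. Alternatives were other scalings, a normexp background correction (offset 50), the deposited table, marked spots, filters on dim probes, the brightest probe, leaving out areas called damaged (spots with at least 2 other 8-fold differences within 300 µm), and thresholds of 1.5-fold and 4-fold. The areas called damaged were set by the differences between the arrays alone, no other sign of damage was used, and they held 16.5% of spots. The normexp correction was run with limma 3.58.1 in R 4.3.3, and all else in Python 3.11.15 with pandas 2.3.3 and numpy 2.4.6.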

Additional observations from a re-analysis of the deposited data

How the results depend on the processing

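No paired analysis was possible because only 1 array was made for each group. The calls of Acp5 and Tnfrsf11b at 2-fold held under all 11 alternatives other than thresholds, and at 4-fold 0 of the genes described were higher and 1, Tnfrsf11b, was lower. The settings on marked spots, dim probes and damaged areas did not touch the spots of these 2 genes. Their values were unchanged there, so those settings could not have altered the calls. The deposited table differed from the main scaling by a constant only, and the brightest-probe setting could not alter Tnfrsf11b, which has 1 probe. Without a filter on dim probes 2 were 2-fold or more lower, since Calcr, at the level of the background, then had a log2 difference of -1.64. The median over the genes described moved to -0.25 when centred on the spike-in RNA and to -0.28 without the areas called damaged, where Ctsk and Oscar have no value. Over all genes, 276 were 2-fold or more higher and 367 lower. These counts were 698 and 767 without a filter, 107 and 164 with probes well above background on both arrays alone, 72 and 64 after normexp, 168 and 202 without the damaged areas, 594 and 752 at 1.5-fold, and 65 and 79 at 4-fold. Centring on the spike-in RNA gave 220 higher and 495 lower. Signal over background limits Tnfsf11 and Calcr, for which no difference can be given, and Oscar, Src, Siglec15 and, on the GW4064 array, Tnfrsf11b, read at signals near or below 100.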

Other observations

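Of 4 genes that IL-4 induces in mouse macrophages, Arg1 had a log2 difference of 3.82, Retnla 0.91, Chil3 0.066 and Mrc1 -0.34. Chil3 was lower once every value was moved by -0.16 to centre on the spike-in RNA. It was also lower after a loess scaling of the difference on the mean level. Of 5 endothelial markers, 4 were measured and 0 passed 2-fold, from Pecam1 with -0.42 to Kdr with -0.033. All 4 were lower, but Kdr had 0.018 with its brightest probe and was also higher after quantile normalization, and Pecam1, with 6 other 8-fold differences within 300 µm, has no value without the damaged areas.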
